A study of Mus musculus with 24 samples.

Results

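Orphan nuclear receptors are transcription factors with the zinc finger DNA-binding domain of the hormone receptors, for which no ligand was known when they were identified. Many of them bind the hexamer AGGTCA, alone or as a repeat, and they act by recruiting corepressor or coactivator complexes. The COUP transcription factors Nr2f1, Nr2f2 and Nr2f6 mostly repress their targets, with Nr2f1 and Nr2f2 best known from the developing nervous system, mesenchyme and vessels. Nr6a1, also called germ cell nuclear factor, silences Pou5f1 when embryonic stem cells differentiate, whereas Nr5a2, also called LRH-1, binds the Pou5f1 gene and helps to keep it active. The 5 genes were taken by name from the RNAseq tables and were all found, among 21909 gene symbols.

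The series studied nucleolar-associated domains (NADs), stretches of the genome in contact with the nucleolus, in mouse cells, and 6 of its 24 samples are RNAseq. Embryonic stem cells (ESCs) of the E14 line were untreated and grew on gelatin without feeders, in medium with LIF at 1000 U/ml and the inhibitors CHIR99021 at 3 µM and PD0325901 at 1 µM (3 samples). Neural progenitor cells (NPCs) were made from E14 ESCs through embryoid bodies over 8 days, with 2 µM retinoic acid for the last 4 days (3 samples). RNA came from 3 independent culture dishes of each cell type, so a p-value here measures the spread between dishes of the same line. Any batch of the dishes or libraries and the cell type cannot be told apart, because ESC and NPC samples have separate tables and no shared batch is named.

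Values were deposited as RPKM, with each sample scaled to its own reads. The gene length in this scaling was the genomic span, introns included: RPKM multiplied by the span gave whole numbers of reads, within 0.02 reads, for 95.2% to 95.8% of the values under 50 reads in each sample, against 7.44% to 8.08% with the exon length. The depth behind the scaling was 34051669, 33731787 and 30779620 reads in ESC replicates 1, 2 and 3 and 30150982, 27262547 and 32297285 reads in NPC replicates 1, 2 and 3. Genes with long introns, such as Nr6a1 with a span of 204 kb and 10.8 kb of exons, therefore have low RPKM. For this reason the recovered reads are given beside the RPKM values, also as RPM (recovered reads scaled to the depth of the sample, with no gene length), and levels of different genes are compared per kilobase of exon.

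ESC replicate 3 stood apart from the other ESC samples. Its log2(RPKM + 1) values correlated with those of ESC replicates 1 and 2 at r = 0.963 and 0.966 across 7835 genes, against 0.999 between replicates 1 and 2 (Pearson, genes not being independent replicates). Among genes with at least 50 reads in each sample, and relative to the mean of the other 2 ESC samples, those with 231 to 2703 bp of exons had a median ratio of 1.44 in ESC replicate 3 and those with 7937 bp or more had 0.537. Among the members this ratio was 1.63 for Nr2f6 with 2983 bp of exons, above the median of 1.04 for the fifth of genes with its exon length. It was 0.624 for Nr5a2 with 5899 bp and 0.612 for Nr6a1 with 10824 bp, beside medians of 0.712 and 0.537. The cause was not tested, and many of the results below are given with and without this sample.

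Nr2f2 and Nr2f1 went from a few reads in ESCs to high levels in NPCs. Nr2f1, a regulator of cortical area identity and neuronal migration, had 0.0136, 0.0137 and 0.0181 RPKM in the ESC samples and 12.3, 13.5 and 13.9 RPKM in the NPC samples. These values stand for 5, 5 and 6 reads in ESCs and 4002, 3967 and 4846 reads in NPCs, so every NPC sample was far above every ESC sample. The sum of the reads gave a ratio of 880.0 between NPCs and ESCs, with an exact 95% interval of 542 to 1540.0 that covers counting error only. On the log2(RPKM + 1) scale, which understates the change of a gene near 0, the difference was 3.81 (SE 0.074, n = 3 per cell type, limma adjusted p = 1.86e-07), higher in 3 of 3 NPC samples. In bulk samples, fewer cells with a transcript and less of it per cell cannot be told apart.

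Nr2f2, which acts in mesenchyme, veins and the ventral forebrain, had 0.0477, 0.0722 and 0.0373 RPKM in ESCs and 35.6, 35.2 and 32.8 RPKM in NPCs. The recovered reads were 24, 36 and 17 in the ESC samples and 15858, 14188 and 15650 in the NPC samples. The cell types did not overlap, and the 3 NPC samples lay close together at 510 ± 22.5 RPM (SD, n = 3). The ratio of the summed reads was 652 (exact 95% interval 522 to 826, counting error only). The difference was 5.08 on the log2(RPKM + 1) scale (SE 0.075, n = 3 per cell type, limma adjusted p = 1.69e-07), the 16th highest of 7835 genes, with Nr2f1 at rank 58.

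**Figure D1:**
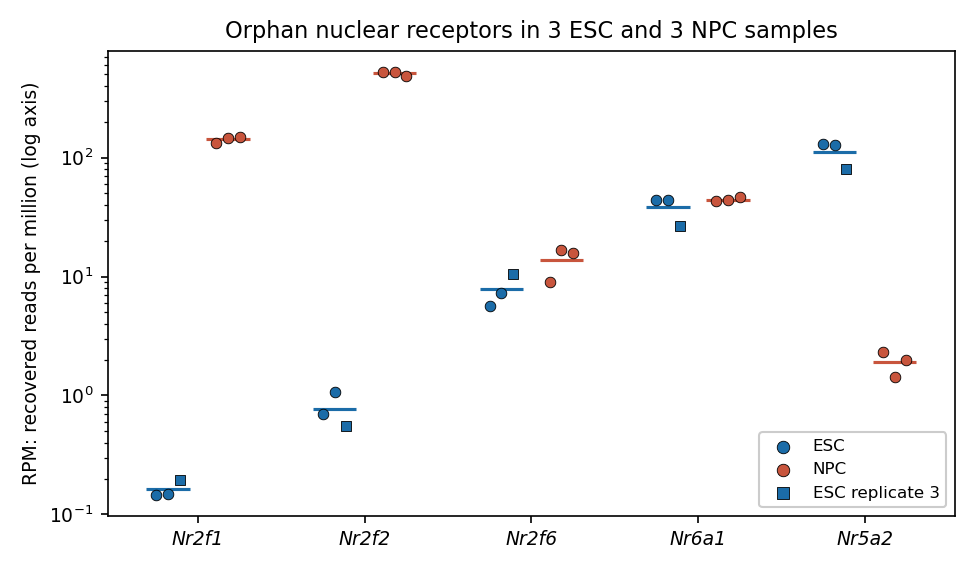
RPM (vertical log axis) of the 5 genes in each of the 3 ESC and 3 NPC samples. Points are samples, squares mark ESC replicate 3 and lines are means; Nr2f1 and Nr2f2 lie at 0.163 and 0.775 RPM in ESCs and at 143 and 510 in NPCs, and Nr5a2 falls from 112 to 1.91.

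Nr2f2 was more abundant than Nr2f1 in each sample. Per kilobase of exon the ratio of Nr2f2 to Nr2f1 was 2.34, 2.11 and 1.91 in the NPC samples. In the ESC samples it was 2.83, 4.25 and 1.67, values that rest on the few reads above. Together the 2 genes held 37.0%, 36.9% and 35.2% of all reads of the 49 nuclear receptor genes in the NPC samples, and 0.0514%, 0.0698% and 0.0632% in the ESC samples.

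Nr2f6, also called EAR2, the COUP-TF best known from blood cells, was present in both cell types. It had 0.723, 0.923 and 1.34 RPKM in ESCs, from 193, 244 and 324 reads, and 1.15, 2.12 and 2.00 RPKM in NPCs, from 272, 452 and 506 reads. ESC replicate 3 was above NPC replicate 1, so the cell types overlapped. The difference of 0.46 on the log2(RPKM + 1) scale (SE 0.175, n = 3 per cell type) did not pass the threshold (limma adjusted p = 0.0537). Without ESC replicate 3 it was 0.58 (limma adjusted p = 0.00942), and without NPC replicate 1 it was 0.63 (limma adjusted p = 0.0147). Over the alternatives tried, the adjusted p ranged from 0.00163 to 0.313, so whether Nr2f6 is called rests on the setting and on these 2 samples.

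Nr6a1 had 0.213, 0.215 and 0.131 RPKM in ESCs and 0.210, 0.216 and 0.227 RPKM in NPCs. Its span brings these values below the minimum of 1 RPKM, although they rest on 1485, 1479 and 824 reads in ESCs and 1291, 1201 and 1496 reads in NPCs. ESC replicates 1 and 2, at 43.6 and 43.8 RPM, lay within the NPC range of 42.8 to 46.3, and ESC replicate 3 was lower at 26.8. In the fit without a filter the difference was 0.04 on the log2(RPKM + 1) scale (SE 0.031, n = 3 per cell type, limma adjusted p = 0.333). It was -0.14 with quantile normalization (limma adjusted p = 0.00268), and the adjusted p over the alternatives ranged from 0.00268 to 0.748, so no direction can be given for Nr6a1.

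Nr5a2 was the member with the higher level in ESCs. It had 1.10, 1.08 and 0.679 RPKM in the ESC samples, from 4414, 4278 and 2463 reads, and 0.0197, 0.0121 and 0.0168 RPKM in the NPC samples, from 70, 39 and 64 reads. ESC replicate 3 was the lowest ESC sample and still lay far above the NPC samples, so the cell types did not overlap. The ratio of the summed reads between ESCs and NPCs was 58.7 (exact 95% interval 50.5 to 68.6, counting error only). In the fit without a filter the difference was -0.93 on the log2(RPKM + 1) scale (SE 0.092, n = 3 per cell type, limma adjusted p = 0.000417), lower in 3 of 3 NPC samples.

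Of the 5 members, 3 passed the filter of at least 1 RPKM in at least 3 samples, Nr2f1 and Nr2f2 through the NPC samples where they are high. Of these 3, limma called 2 at an adjusted p under 0.05, where 70.2% of the 7835 genes tested were called, so the share is near the background. Both were higher in NPCs, as were 36.9% of the genes tested. Without ESC replicate 3, 3 of the 3 were called, against 87.9% of the genes tested. Without the filter, 3 of 5 members were called (Nr2f1, Nr2f2 and Nr5a2), against 62.4% of 18360 genes.

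A fit of log2(RPM + 0.5), chosen after the values were seen, does not depend on the span and covered 14657 genes with at least 10 reads in at least 3 samples. This minimum too can be met through 1 cell type alone, as by Nr2f1 with its few reads in ESCs, so counts of the lists below are also given from the fit without a filter. The RPM fit called 4 of 5 members, against 74.2% of the genes tested, and without ESC replicate 3 again 4 of 5, against 88.4%. Nr2f2 was higher in NPCs by 8.67, Nr2f1 by 7.75 and Nr2f6 by 0.77 (limma adjusted p = 6.22e-08, 5.40e-08 and 0.0499, n = 3 per cell type). Nr5a2 differed by -5.53 (limma adjusted p = 1.20e-06) and Nr6a1 by 0.25 (limma adjusted p = 0.298). The median of all genes in this fit was 0.35, against 0.02 in the RPKM fit, so relative to the typical gene Nr6a1 was not higher and Nr2f6 was higher by less than its own value. Without ESC replicate 3 the values were 8.54 for Nr2f2, 7.79 for Nr2f1, 1.00 for Nr2f6, 0.02 for Nr6a1 and -5.76 for Nr5a2, beside a median of 0.25.

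The order of the 5 genes differed between the cell types. In ESCs the mean level was 19.0 ± 4.72 RPM per kilobase of exon for Nr5a2 (SD, n = 3), followed by Nr6a1 at 3.52 ± 0.905, Nr2f6 at 2.62 ± 0.831, Nr2f2 at 0.0898 ± 0.031 and Nr2f1 at 0.032 ± 0.0054. Nr6a1 and Nr2f6 overlapped in this order, and without ESC replicate 3 both Nr6a1 values were above both Nr2f6 values. In NPCs Nr2f2 led at 59.2 ± 2.61, followed by Nr2f1 at 28.0 ± 1.76, Nr2f6 at 4.61 ± 1.38, Nr6a1 at 4.10 ± 0.164 and Nr5a2 at 0.324 ± 0.076 (SD, n = 3). Nr2f6 and Nr6a1 again did not differ beyond their spread, while the other neighbours in both orders did. For Nr2f2 and Nr2f1 in ESCs this rests on only 24, 36 and 17 reads against 5, 5 and 6.

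Set among the 44 other nuclear receptor genes on the same scale, Nr2f2 ranked 1st of 49 in NPCs and lay above the next gene in each sample. Nr2f1 ranked 3rd there. Its range overlapped with those of Rara, a retinoic acid receptor, at 30.5 ± 2.37 and of the next gene below, Rxrb, at 25.3 ± 1.81. Within each NPC sample Nr2f1 was below Rara and above Rxrb. In ESCs Nr5a2 ranked 5th, below Esrrb, a pluripotency factor, at 115 ± 32.4. Its range overlapped with that of Rara at 16.6 ± 2.98 RPM per kilobase of exon, though without ESC replicate 3 both Nr5a2 values were above both Rara values. Within each ESC sample Nr5a2 was above Rara, but in ESC replicate 3 by little (13.6 against 13.5). Nr2f2 and Nr2f1 ranked 24th and 33rd in ESCs, and Nr5a2 ranked 28th in NPCs, each not separated from the next gene.

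**Figure D2:**
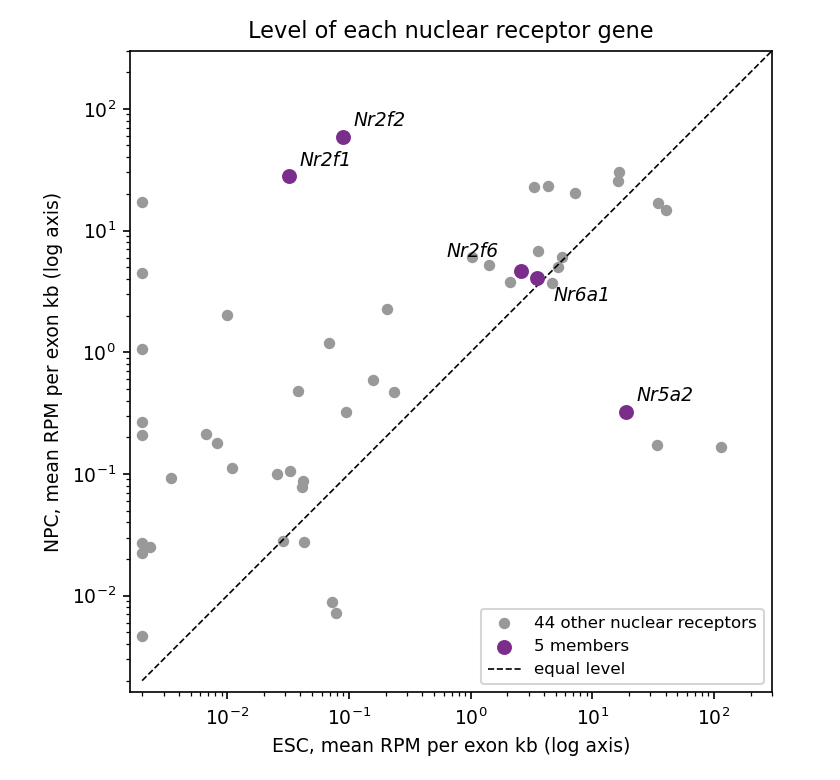
Mean level of 49 nuclear receptor genes in ESCs (horizontal log axis) and NPCs (vertical log axis), in RPM per kilobase of exon, with n = 3 samples per cell type. Values under 0.002 (8 genes in ESCs) are drawn at 0.002 and the dashed line marks equal levels; Nr2f1 and Nr2f2 lie far above it, Nr5a2 far below it, and Nr2f6 and Nr6a1 close to it.

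Of the 44 other receptors, 11 passed the RPKM filter and limma called 5 higher and 4 lower in NPCs, with a median difference of 0.07 beside 0.02 for all genes tested, and without ESC replicate 3 both counts were 5. Of all genes tested 70.2% were called, or 87.9% without ESC replicate 3. Thra and Rxra passed only through the NPC samples, and Nr0b1 and Esrrb only through the ESC samples. The 5 that rose were the thyroid hormone receptor Thra (1.61), the retinoic acid receptors Rarg (1.03) and Rara (0.60) and the retinoid X receptors Rxra (0.95) and Rxrb (0.59), which pair with many receptors. The 4 that fell were Nr0b1 (-3.87) and Esrrb (-2.37), both of the pluripotency network, the immediate early gene Nr4a1 (-1.17) and the oxysterol receptor Nr1h2 (-0.996). In RPM 35 were tested, with 26 higher and 4 lower, beside 6740 higher and 4137 lower of all 14657 genes, or 27 and 6 without ESC replicate 3. Among the 26, Rarb (7.49) went from 0, 1 and 0 reads in ESCs to 2732, 2363 and 3104 in NPCs, near the 7.75 of Nr2f1. Esrrg (5.82) went from 0 reads in each ESC sample to 918, 751 and 821 in NPCs. Both were below the RPKM filter and met the minimum of reads only through the NPC samples. Without a filter 25 of the 44 were higher and 6 lower, beside 7245 and 4209 of 18360 genes. In the RPM fit the fall of Nr5a2 (-5.53) lay between those of Nr0b1 (-6.27) and Nr4a1 (-1.45). Without a filter, on the log2(RPKM + 1) scale, it was smaller (-0.93) than both (-3.87 and -1.17).

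Of 12 corepressors and partners of the COUP-TFs 7 passed the RPKM filter and limma called 4, each higher in NPCs, with a median difference of 0.30. This share is not above the 70.2% of all genes called. Among them were Nrip1 (1.00), which passed only through the NPC samples, Tbl1x (0.68) and the histone deacetylase Hdac3 (0.27). Hdac3 was near the threshold (limma adjusted p = 0.0492) and was not called by RPM (0.32, limma adjusted p = 0.0619). Bcl11a and Bcl11b, which bind COUP-TFs, and the GATA cofactors Zfpm1 and Zfpm2 stayed under 1 RPKM but differed in RPM, Zfpm2 by 6.00 from 0.961 ± 0.170 in ESCs to 92.7 ± 7.93 in NPCs and Bcl11a by 6.33 from 0.254 ± 0.193 to 58.9 ± 5.73 (SD, n = 3). Without a filter Bcl11a was higher by 0.69 on the log2(RPKM + 1) scale (limma adjusted p = 1.48e-05). By RPM 7 of 12 were higher, as were 6740 of all 14657 genes tested, and without a filter 8, as were 7245 of 18360 genes. Without ESC replicate 3 there were 8 higher and 2 lower by RPM and 4 higher and 1 lower by RPKM, where 88.4% and 87.9% of all genes were called. Among 8 coactivators 5 passed the RPKM filter and limma called Crebbp, a histone acetyltransferase (0.57), which passed only through the NPC samples, while 70.2% of all genes were called. By RPM 4 of 8 were called, each higher, against 74.2% of all genes, and without a filter 4 of 8 were higher, as were 7245 of 18360 genes. Without ESC replicate 3 the calls were 3 higher and 2 lower by RPKM and 6 higher and 2 lower by RPM, so the coactivator counts depend on that sample. In these 2 fits 87.9% and 88.4% of all genes were called.

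Most genes tied in the literature to repression by Nr6a1 or the COUP-TFs, or to activation by Nr5a2, were lower in NPCs. Of 10 genes 8 passed the filter and limma called these 8 lower, with a median difference of -3.97, and the count was 8 without ESC replicate 3 too. Of all 7835 genes tested, 2606 were lower, or 3447 without ESC replicate 3. Pou5f1, Nanog, Fgf4, Tdgf1 and Dppa3 passed only through the ESC samples where they are high, while Sox2, Tbx3 and Klf4 passed in both cell types. Pou5f1, the central pluripotency factor, went from 130, 136 and 202 RPKM to 0.0558, 0.0386 and 0.0651 RPKM. Nanog went from 98.1 ± 3.04 to 0.0541 ± 0.024 RPKM, and Tbx3 from 13.2 ± 3.34 to 7.00 ± 0.338 RPKM (SD, n = 3). The oocyte genes Gdf9 and Bmp15 were under 0.1 RPKM in each sample. By RPM 9 were tested, with 8 lower and 1 higher, which was Gdf9 by 0.58 (limma adjusted p = 0.0107), and without a filter 8 of the 10 were lower and 1 higher. Among all genes, 4137 of 14657 were lower by RPM and 4209 of 18360 without a filter. Pou5f1, Nanog and Klf4 are also in the list of ESC markers below.

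Most genes that respond to retinoic acid, which the NPC protocol used, were higher in NPCs like Nr2f1 and Nr2f2. Of 10 genes 8 passed the filter, each only through the NPC samples where it is high, so that the direction of the 8 calls, each higher in NPCs, was set by the filter. Cyp26b1, which degrades retinoic acid, went from 0.020 ± 0.014 to 42.6 ± 1.71 RPKM (SD, n = 3). Without a filter limma called 9 of the 10 higher and 1 lower, beside 7245 higher and 4209 lower of all 18360 genes. By RPM too 10 were tested, with 9 higher, Rarb among them, and 1 lower, Stra8 by -1.56 (limma adjusted p = 8.48e-04). Of all 14657 genes in the RPM fit 6740 were higher and 4137 lower. Retinoic acid and the other differences between the 2 cultures cannot be told apart. Its part in the levels of Nr2f1 and Nr2f2 was not tested.

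The cell type labels were checked against marker lists. Of 7 ESC markers 7 fell, from summed levels of 1655.0, 1646 and 3517 RPKM in the ESC samples to 2.51, 2.22 and 2.32 RPKM in the NPC samples, with Dppa5a the most abundant in ESCs. All but Klf4 passed the filter only through the ESC samples. Of 7 neural progenitor markers 6 passed the filter and 5 rose, of which Pax6, Sox1 and Hes5 passed only through the NPC samples. By RPM 7 were tested and 6 were higher, or 7 without ESC replicate 3. The list had sums of 41.6, 43.2 and 51.1 RPKM in ESCs and 85.9, 91.4 and 93.8 RPKM in NPCs. Vim, the most abundant of them in both cell types, was not called with all 6 samples (limma adjusted p = 0.204) but was without ESC replicate 3 (0.00208), while Pax6 rose from 0.012 ± 0.0063 to 1.55 ± 0.123 RPKM and Nes from 3.46 ± 0.292 to 30.6 ± 1.79 RPKM. In every ESC sample Hes5, Dcx, Foxf1, Afp, Ttr and Tfap2b of the lists were listed at 0, and no marker was at 0 in every NPC sample.

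Many markers of mesoderm and endoderm were higher in NPCs too. Of 8 mesoderm and mesenchyme markers 4 passed the filter and 4 rose, but these 4 passed only through the NPC samples, so their direction was set by the filter. By RPM 7 were tested, with 6 higher and 1 lower. The list had sums of 1.398, 1.42 and 1.24 RPKM in ESCs and 58.2, 60.03 and 55.2 RPKM in NPCs. The most abundant in NPCs was Foxf1, listed at 0 in each ESC sample and at 26.7 ± 2.66 RPKM in NPCs, while Mesp1 was under 0.1 RPKM there. The early mesoderm gene T, the most abundant of the list in ESCs at 0.959 RPKM, was at 0.0123 RPKM in NPCs and fell by RPM (-3.78, limma adjusted p = 2.15e-07). Of 6 endoderm markers 4 passed the filter, again only through the NPC samples, and 4 rose, while by RPM 5 were tested and 5 were higher. The list had sums of 0.0977, 0.115 and 0.0834 RPKM in ESCs and 14.7, 16.2 and 15.7 RPKM in NPCs. In NPCs Gata6 was the highest in RPKM at 6.69 ± 0.337. Per kilobase of exon Gata4 was the highest there, at 110 RPM against 34.5 for Gata6. Of 4 endothelial markers, Kdr passed the filter, only through the NPC samples, and rose, and by RPM 4 were tested and 3 were higher. Without ESC replicate 3 the remaining marker, Tek, was lower by RPM (-0.63, limma adjusted p = 1.05e-04). The list had sums of 0.245, 0.235 and 0.128 RPKM in ESCs and 4.72, 4.21 and 4.04 RPKM in NPCs. Of 7 neuron markers 3 passed, 1 rose and 2 fell, but Neurod1, which rose, passed only through the NPC samples and Stmn2, which fell, only through the ESC samples. The list had sums of 11.6, 12.6 and 14.9 RPKM in ESCs and 8.08, 6.90 and 8.25 RPKM in NPCs, with Tubb3 the highest in RPKM in both. Per kilobase of exon Tubb3 was the highest in NPCs, but in ESCs Stmn2 was, at 49.3 RPM against 41.3 for Tubb3. By RPM 7 were tested, with 5 higher and 2 lower and a median difference of 3.21, against -0.69 in the RPKM fit, so the direction of this list depends on the fit and the genes it tests. Of 4 neural crest markers Foxd3 passed, only through the ESC samples, and fell. The list had sums of 8.27, 8.77 and 7.62 RPKM in ESCs and 1.23, 1.17 and 1.19 RPKM in NPCs, with Foxd3 the highest in RPKM in both. Per kilobase of exon it was the highest in ESCs, while in NPCs Tfap2b at 0.835 RPM was about level with Foxd3 at 0.829. By RPM Tfap2b (3.53) and Sox10 (1.31) were higher and Foxd3 (-2.91) and Tfap2a (-2.24) lower. Without a filter limma called 6 higher and 1 lower of the 8 mesoderm and mesenchyme markers, 6 higher of the 6 endoderm, 3 higher of the 4 endothelial, 5 higher and 2 lower of the 7 neuron and 2 higher and 2 lower of the 4 neural crest markers. It called 6 of the 7 neural progenitor markers higher and 7 of the 7 ESC markers lower. Of all 18360 genes in that fit 7245 were called higher and 4209 lower. With the RPKM filter 2894 were higher and 2606 lower of 7835, and by RPM 6740 and 4137 of 14657. The part of cells of these other types in the levels of Nr2f1 and Nr2f2 was not tested.

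For each member, the genes most like it were those with the smallest root mean square difference of centred log2(RPKM + 1) over the 6 samples, among the genes that passed the filter. For Nr2f1 these were Tcf21 (0.041) and Hoxb1 (0.060), and for Nr2f2 Hoxb5 (0.061) and Id2 (0.072). Nr2f6 was followed by Cited2 (0.067) and Tlnrd1 (0.089), which like it were lowest in NPC replicate 1 among the NPC samples. Nr6a1 was followed by Rhot1 (0.022) and Slc12a9 (0.023), and Nr5a2 by Ercc6l (0.025) and Taf5l (0.026), which were lower in ESC replicate 3 than in the other ESC samples. This scale shrinks differences of genes near or under 1 RPKM, so the likeness does not extend to fold changes: Ercc6l had 6.64, 6.39 and 5.17 RPKM in ESCs and 2.83, 2.66 and 2.65 RPKM in NPCs, a far smaller ratio than that of Nr5a2.

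In GENCODE M21 on GRCm38 the 5 genes lie on the minus strand, at chr13:78188973-78199757 for Nr2f1 (ENSMUSG00000069171.14), chr7:70351944-70366735 for Nr2f2 (ENSMUSG00000030551.14), chr8:71374123-71381960 for Nr2f6 (ENSMUSG00000002393.14), chr2:38723370-38927688 for Nr6a1 (ENSMUSG00000063972.13) and chr1:136842571-136960448 for Nr5a2 (ENSMUSG00000026398.14). Noncoding genes on the plus strand overlap Nr2f1 (A830082K12Rik, over 1741 bp), Nr2f2 (B130024G19Rik, over 1826 bp) and Nr6a1 (Nr6a1os, and the microRNA genes Mir181a-2 and Mir181b-2). Nr2f6 overlaps the coding gene Ocel1 on the plus strand over 5239 bp. Ocel1 had 1.34, 1.58 and 2.11 RPKM in ESCs and 1.15, 1.37 and 1.20 RPKM in NPCs. Because the sources differ on whether the libraries mark the strand, reads of overlapping genes may not have been told apart, and the small difference of Nr2f6 is uncertain for this reason too. On one side of Nr6a1, 8.83 kb away, lies the receptor gene Nr5a1, with no more than 0.0101 RPKM in any sample. On the other side, 4.29 kb away, lies Olfml2a, with at most 1 read in an ESC sample and higher in NPCs by 2.63 in RPM (limma adjusted p = 1.18e-06) and by 0.12 on the log2(RPKM + 1) scale without a filter (limma adjusted p = 7.29e-05). Fam172a, 22.7 kb from Nr2f1, had 0.0282, 0.026 and 0.019 RPKM in ESCs and 0.080, 0.076 and 0.075 RPKM in NPCs.

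NADs were mapped in both cell types by Nucleolar-DamID, in which a Dam methylase fused to histone H2B and directed to nucleoli marks the DNA it touches. The mapping used ESC lines with the Dam fusion as a transgene, and NPCs made from such lines, after induction with doxycycline and Shield1. The RNAseq samples are not labelled as these lines, so NAD positions and RNA levels come from separate samples. The deposited lists hold 1769 NADs of ESCs and 1447 of NPCs with 1 score each and no replicate values, so positions are described without a test. Nr2f1 and Nr6a1 lay wholly inside a NAD in both cell types, and Nr2f2, Nr2f6 and Nr5a2 lay outside the NADs of both. That is 2 of 5 genes in each cell type, beside 27.1% of 21402 genes in ESCs and 21.6% in NPCs that overlap a NAD.

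By these positions Nr2f1 lay in a NAD in the cell type whose RNAseq samples had a mean of 143 RPM as well as in the one with 0.163. In ESCs its NAD was chr13:76500586-78200401 with a score of 0.0404, which ended near the 5′ end of the gene. In NPCs it was a NAD of 12.5 Mb, chr13:74399556-86901095, with a score of 0.0502. Nr6a1 lay in chr2:38699796-39300125 in ESCs (score 0.0539) and chr2:38700090-39499386 in NPCs (score 0.0565). The nearest NAD was 353 kb from Nr2f2 in ESCs and 535 kb in NPCs, 440 kb and 739 kb from Nr5a2, and 517 kb and 17.9 kb from Nr2f6. The NADs were called at a resolution of 100 kb, so whether Nr2f1 lies inside in ESCs, near an edge, and whether Nr2f6 lies outside in NPCs cannot be settled from these positions. The 3′ end of Nr6a1 also lies within that distance of an edge in both cell types, while its 5′ end lies deeper inside.

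**Figure D3:**
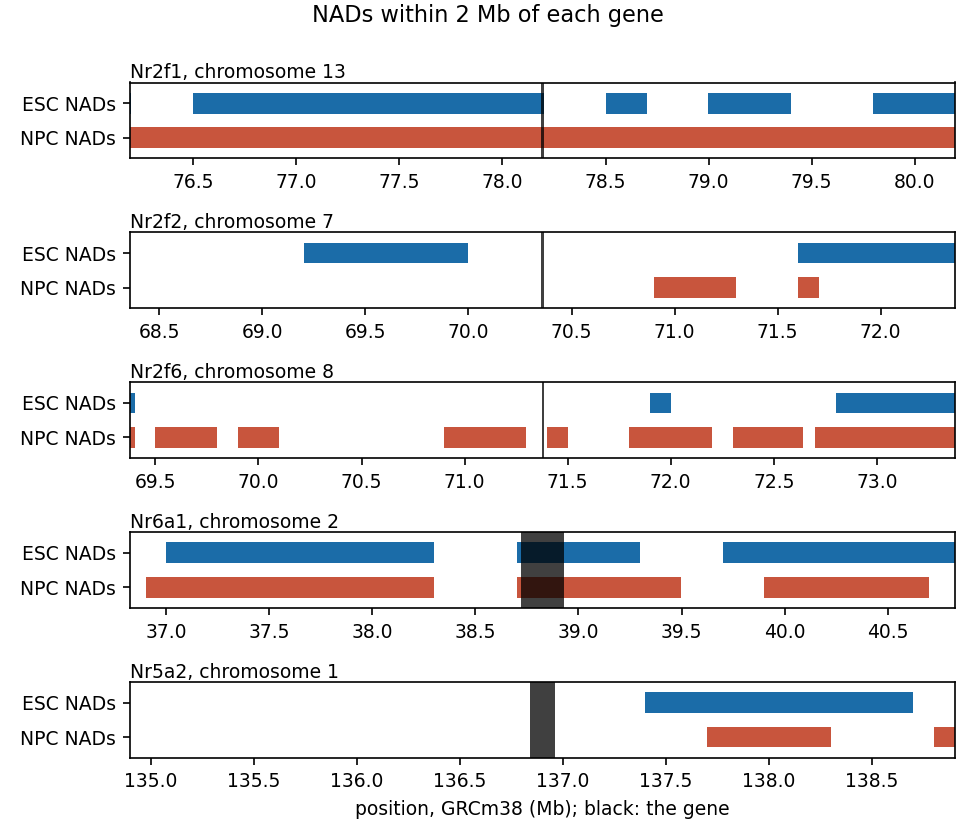
NADs of ESCs (upper bars) and NPCs (lower bars) within 2 Mb on each side of the 5 genes, against position on GRCm38 in Mb; the black band is the gene. Nr2f1 and Nr6a1 fall inside bars of both cell types, and Nr2f2, Nr2f6 and Nr5a2 in gaps of both.

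RefSeq promoters (GRCm38.p6) were found for 5 of 5 members, with 8 starts in all, and the 250 bases before each start were searched on both strands for the hexamer AGGTCA that most nuclear receptors bind. It was present in 2 of the 8 windows, 1 of Nr5a2 and 1 of Nr6a1, and in 14.0% of 32851 promoter windows of that length. The longer motif CAAGGTCA, bound by Nr5a2 itself, was in none of the 8 and in 1.33% of all windows. Direct repeats of AGGTCA spaced by 0, 1, 2 or 5 bases were in none of the 8 windows, and each spacing was in at most 11 of all windows. The windows of Nr2f2 and Nr5a2 upstream of the outermost annotated start are shown because these genes moved in opposite directions, with AGGTCA in capitals. The Nr2f2 window, chr7:70366747-70366996 on the minus strand, holds 50.0% G and C, and the Nr5a2 window, chr1:136960449-136960698 on the minus strand, 43.2%, beside a median of 52.4%.
Nr2f2: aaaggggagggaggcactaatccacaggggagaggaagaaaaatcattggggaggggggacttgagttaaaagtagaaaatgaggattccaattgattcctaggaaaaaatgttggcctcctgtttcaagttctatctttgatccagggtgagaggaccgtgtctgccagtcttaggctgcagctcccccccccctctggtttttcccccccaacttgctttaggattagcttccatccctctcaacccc
Nr5a2: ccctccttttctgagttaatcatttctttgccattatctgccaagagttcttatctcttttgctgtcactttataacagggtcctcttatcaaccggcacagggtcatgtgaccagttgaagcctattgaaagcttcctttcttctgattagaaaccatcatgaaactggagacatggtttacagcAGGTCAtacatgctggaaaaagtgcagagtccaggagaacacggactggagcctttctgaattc
A match or its absence describes these letters in this window and says nothing of binding.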

How the data were processed

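RNA was measured in 3 ESC and 3 NPC samples. From reads cleared of rRNA (SortMeRNA), trimmed (Trimmomatic) and mapped with STAR to GRCm38, the authors computed RPKM values from exon coverage; the annotation was not given in the sources used here. Whether reads in introns were counted cannot be checked from the values. The labels name a kit that does not mark the strand, and the methods one that does. NADs and their score were deposited by the authors after alignment with Bowtie2 2.3.4.3 and peak calling on H2B-Dam-NoLS over H2B-Dam, keeping NADs common to both experiments. Data of ChIP and DamID reads were not analysed here.

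The tables hold 21909 symbols; of 153 symbols on several lines the line with the highest mean was kept. Log2(RPKM + 1) of genes with at least 1 RPKM in at least 3 samples was fitted with limma 3.58.1 (R 4.3.3, lmFit, eBayes with trend). Tests were two-sided, with Benjamini-Hochberg adjustment over all genes tested, and genes were called at an adjusted p under 0.05. On data simulated with the means and spread of the NPC samples, the fit found 197 of 200 changed genes, with 14 false calls. That simulation holds no sample like ESC replicate 3, so it does not cover its effect. Reads were recovered as RPKM times span over the step of each sample, for 21597 symbols with 1 GENCODE M21 span. Intervals are exact binomial ones and cover counting error only, since reads without molecular identifiers are not independent molecules. Other pseudocounts, filters, scalings, eBayes without trend, a replicate block and leaving out each sample were tried.

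The members and lists were chosen with earlier results of these data known. Named genes are the members, the genes of lists of at most 12 genes, the 6 called receptors with the largest rise and fall, the 3 most abundant receptors per cell type, the 2 genes most like each member, and overlapping or nearest genes. Values of some genes of the lists are not reported here.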

Additional observations from a re-analysis of the deposited data

How the results depend on the processing

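The calls of Nr2f1 and Nr2f2 as higher and of Nr5a2 as lower in NPCs kept their direction and stayed under an adjusted p of 0.05 in each alternative that gave a value. Their differences ranged from 3.77 to 7.79, from 5.05 to 8.67 and from -5.76 to -0.88. With each sample left out in turn they ranged from 3.77 to 3.86, from 5.05 to 5.11 and from -1.04 to -0.88, Nr6a1 from 0.0039 to 0.055 and Nr2f6 from 0.36 to 0.63. Nr2f6 passed the threshold with samples rescaled by the median of ratios (0.58, adjusted p = 0.0220) and by RPM (0.77, or 1.00 without ESC replicate 3). Nr6a1 was -0.14 with quantile normalization. The cause was not tested. Nr6a1 and Nr5a2 have no value with a mean of at least 1 RPKM, since neither reaches it.

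The count of 5500 genes called became 11454 without a filter and 10877 by RPM (12956 without ESC replicate 3), where more genes were tested, and 2246 with a difference of at least 2-fold added. With each sample left out it ranged from 4616 to 6884, the highest being without ESC replicate 3. Rescaling by the median of ratios moved the median of all genes from 0.02 to 0.17. The sources name no pairing of the samples by replicate number. Deviations of same-numbered samples correlated at 0.11, -0.083 and 0.032, beside -0.090 to 0.089 for samples with different numbers. With the number as a replicate block 5214 genes were called, and Nr2f6, at 0.46, had an adjusted p of 0.0115; the block changed no other member's call. The number of members in a NAD was 2 in each cell type also for the transcription start alone and for NADs at or above the median score. The 5 to 36 reads per ESC sample limit how finely Nr2f1 and Nr2f2 can be compared there.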
